A study of Mus musculus with 12 samples.

Results

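Collagen genes were followed in epididymal white adipose tissue (eWAT), the fat pad attached to the epididymis, after an injection of epinephrine. The members were all genes of the count table whose symbol has the form of a collagen chain name (Col, a type number, a and a chain number), which gave 44 of 27179 genes. Of these, 11 encode fibrillar chains, 6 encode the type IV chains of basement membranes and 27 encode other types. The tissue came from 12 male C57BL/6J mice fed chow, with no transgene or gene deletion named. The epinephrine group of 6 mice received sodium epinephrine in saline at 0.5 mg/kg into the peritoneum, and the vehicle group of 6 mice received the same volume of saline by the same route. Tissue was collected 1 h after either injection. The listed ages run from 18 to 23 weeks in the epinephrine group and from 12 to 17 weeks in the vehicle group, so treatment and listed age cannot be told apart. The listed ages rise by exactly 1 week from each mouse to the next across both groups, a regularity that leaves it uncertain whether they are the true ages. Each library is called by its group and replicate number.

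Collagens are secreted proteins built from chains wound around each other in a helix of glycine-rich repeats. Fibrillar collagens, chiefly types I, III and V, form the cables that carry tension in connective tissue. Type IV collagens form the sheet-like networks of basement membranes, which in fat surround each adipocyte and every small vessel. Type VI collagen forms beaded filaments close to cells and is abundant in adipose tissue, where fibroblast-like progenitors are a main source of matrix. New chains are hydroxylated, folded and escorted by dedicated enzymes and chaperones in the endoplasmic reticulum before they leave the cell.

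Depth did not limit the abundant members. Gene-assigned reads per library ran from 24821601 to 34405433, of which 143185 to 329001 fell on collagen genes. Adipocyte markers marked every library as fat, with a summed level of 16778 to 38007 CPM (reads per 1e6 assigned reads, TMM-normalized) with epinephrine and 12773 to 40476 CPM with vehicle over 10 genes, none of them at 0. Genes of the epididymis and testis varied far more between libraries. Over 17 such markers, the summed share of assigned reads ran from 0.00352% to 3.24% among epinephrine libraries and from 0.00102% to 4.77% among vehicle libraries, and 3 of the 17 were at 0 in at least 1 library. Epinephrine 1, epinephrine 2 and vehicle 2 stood apart, with 3.24%, 2.59% and 4.77%, and numbers 4 to 6 of both groups were at 0.125% or less. In bulk tissue, fewer cells of a type and less RNA per cell cannot be told apart.

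Several collagen genes lie next to each other, and the start regions of those that the results below turn on are shown here. Positions and sequences are from RefSeq on GRCm38.p6, the assembly that mm10, the build named in the submitters' processing notes, is made from. Each sequence runs from 250 bases before to 50 bases after the annotated start, 5′ to 3′ on the gene's own strand, and capitals mark matches on either strand to a CCAAT box (CCAAT) or a GC box (GGGCGG). Col4a1 and Col4a2 start head to head on chromosome 8, and their gene models overlap by 85 bases. Col4a4 and Col4a3 overlap by 114 bases on chromosome 1, and Col4a6 and Col4a5 lie 1274 bases apart on chromosome X. The type VI genes Col6a6, Col6a5 and Col6a4 follow each other on chromosome 9, with gaps of 27823 and 27854 bases. These overlaps and gaps are between the outer ends of the gene models. The start used for a window can lie inside the model. It is at 82586849 for Col4a4, whose model ends at 82587034, and at 105960643 for Col6a5, whose model ends at 105962463. The windows shown are chr8:11312777-11313076 (minus strand) for Col4a1, chr1:82586800-82587099 (minus) for Col4a4, chrX:141474027-141474326 (minus) for Col4a6, chrX:141475169-141475468 (plus) for Col4a5, chr9:106096642-106096941 (minus) for Col6a4 and chr9:105960594-105960893 (minus) for Col6a5.
Col4a1: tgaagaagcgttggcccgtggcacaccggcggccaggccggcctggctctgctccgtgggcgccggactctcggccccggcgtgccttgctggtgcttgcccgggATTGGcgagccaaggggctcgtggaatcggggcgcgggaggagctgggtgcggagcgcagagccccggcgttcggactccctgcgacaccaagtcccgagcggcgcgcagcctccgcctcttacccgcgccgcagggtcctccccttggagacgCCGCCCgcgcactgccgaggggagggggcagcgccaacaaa
Col4a4: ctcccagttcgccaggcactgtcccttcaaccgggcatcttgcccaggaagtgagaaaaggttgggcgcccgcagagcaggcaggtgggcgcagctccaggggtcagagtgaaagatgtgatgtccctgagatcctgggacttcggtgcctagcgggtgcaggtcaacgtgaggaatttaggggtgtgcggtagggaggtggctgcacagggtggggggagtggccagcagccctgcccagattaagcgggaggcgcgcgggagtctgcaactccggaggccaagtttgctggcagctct
Col4a6: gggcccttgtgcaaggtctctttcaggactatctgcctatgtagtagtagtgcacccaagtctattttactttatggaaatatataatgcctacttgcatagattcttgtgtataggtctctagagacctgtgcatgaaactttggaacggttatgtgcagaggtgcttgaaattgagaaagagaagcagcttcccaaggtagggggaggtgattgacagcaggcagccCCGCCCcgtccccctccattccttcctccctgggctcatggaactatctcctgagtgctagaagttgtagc
Col4a5: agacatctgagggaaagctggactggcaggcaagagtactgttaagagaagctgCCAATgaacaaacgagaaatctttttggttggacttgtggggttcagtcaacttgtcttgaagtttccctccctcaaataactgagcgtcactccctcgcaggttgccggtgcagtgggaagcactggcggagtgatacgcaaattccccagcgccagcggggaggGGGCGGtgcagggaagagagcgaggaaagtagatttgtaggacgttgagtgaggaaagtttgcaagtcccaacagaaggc
Col6a4: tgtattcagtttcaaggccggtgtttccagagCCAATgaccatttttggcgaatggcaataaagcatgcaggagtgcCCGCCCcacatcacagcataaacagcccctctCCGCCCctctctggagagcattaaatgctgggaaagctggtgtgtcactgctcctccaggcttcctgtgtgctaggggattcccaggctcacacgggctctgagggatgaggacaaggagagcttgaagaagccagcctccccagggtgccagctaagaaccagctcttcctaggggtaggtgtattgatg
Col6a5: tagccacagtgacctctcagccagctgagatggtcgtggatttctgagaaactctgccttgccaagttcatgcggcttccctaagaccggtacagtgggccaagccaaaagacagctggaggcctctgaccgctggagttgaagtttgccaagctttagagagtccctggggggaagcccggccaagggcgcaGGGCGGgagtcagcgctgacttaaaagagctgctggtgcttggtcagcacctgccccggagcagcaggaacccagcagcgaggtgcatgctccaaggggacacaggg

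The type IV windows shown differ in base composition, from 74.0% G and C in Col4a1 to 48.3% in Col4a6, against a median of 52.7% over all windows. RefSeq windows were found for 35 of the 44 collagen genes (38 windows). A GC box was in 23 of the 38 (60.5%), against 35.7% of 32851 windows of all genes, and a CCAAT box in 13 (34.2%), against 37.4%. The cyclic AMP response element TGACGTCA, the site known to be bound by CREB downstream of beta-adrenergic receptors, was in 1 collagen window, that of Col24a1, and in 1.79% of all windows. The AP-1 site TGANTCA was also in 1, that of Col6a1, and in 7.81% of all windows. Both strands were searched, and matches to different motifs may overlap.

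Collagen transcripts made up 0.888% ± 0.182 of assigned reads with epinephrine and 0.897% ± 0.166 with vehicle (SD, n = 6 each). Fibrillar genes held 0.383% ± 0.0871 with epinephrine and 0.412% ± 0.0848 with vehicle, type IV genes 0.263% ± 0.0579 with epinephrine and 0.241% ± 0.0553 with vehicle, and the other types 0.243% ± 0.0417 with epinephrine and 0.243% ± 0.0283 with vehicle (SD, n = 6 each). The lowest total share in each group was that of epinephrine 1 (0.558%) and vehicle 2 (0.560%), which carry the most epididymal RNA of their groups. The class shares were not tested and differed between groups by less than the SD within either group.

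Per kilobase of gene length, which allows genes to be compared, Col3a1 was the highest collagen, at 308 ± 80.9 CPM per kb with epinephrine and 323 ± 78.0 with vehicle (SD, n = 6 each). Col3a1 encodes the single chain of type III collagen, a partner of type I in extensible tissue. Next came Col4a1, Col1a2, Col4a2 and Col6a2, at means of 246, 156, 159 and 129 CPM per kb with epinephrine and 208, 160, 133 and 113 with vehicle. The SDs of these neighbours overlap, but all were measured in the same libraries, so that overlap does not decide their order. Col4a1 lay above Col4a2 in all 12 libraries, at a ratio per length of 1.47 to 1.62. The group means of Col1a2 and Col4a2 fell in a different order with epinephrine than with vehicle. Col3a1, Col4a1, Col4a2, Col1a2 and Col1a1 held 61.2% ± 1.85 of all collagen reads with epinephrine and 61.6% ± 2.55 with vehicle (SD, n = 6 each). At the other end, 9 genes had too few reads to be tested.

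**Figure D1:**
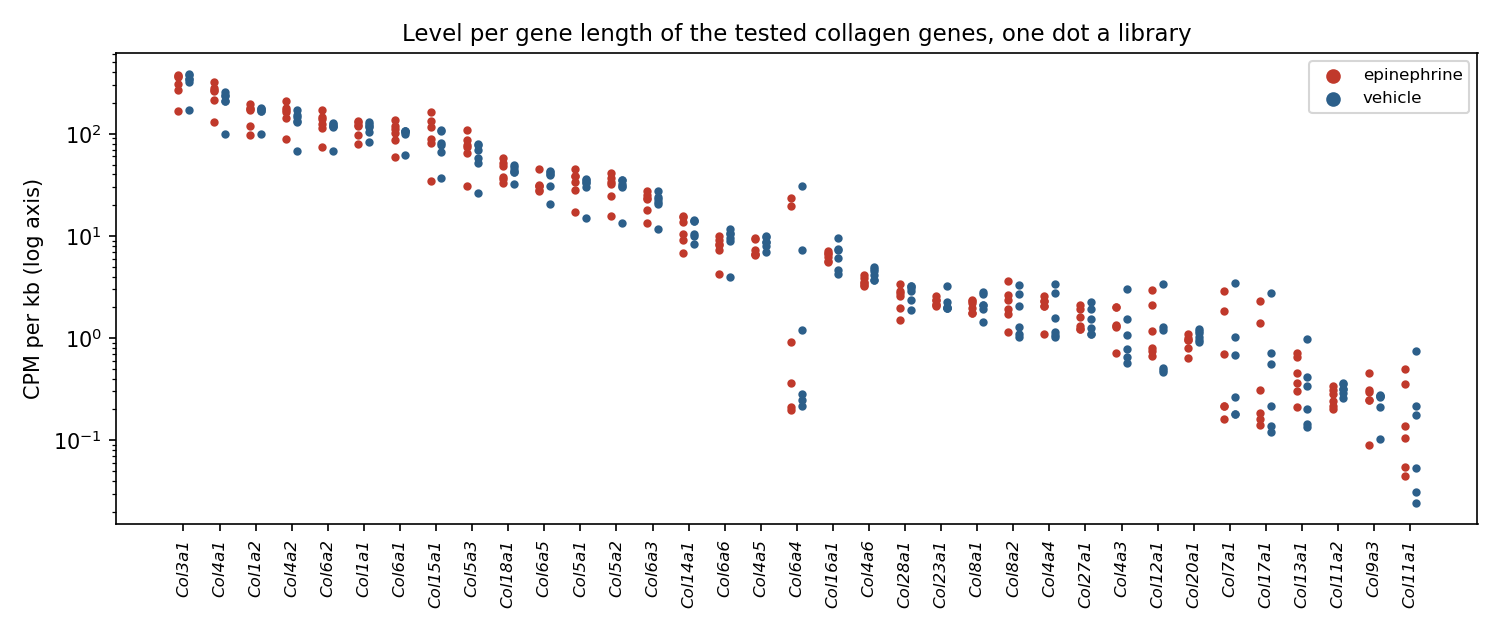
Level of the 35 tested collagen genes per kilobase of gene length (TMM-normalized CPM per kb, log axis), ordered by mean, with epinephrine libraries left of vehicle libraries and 1 dot a library. Col3a1 is highest and Col11a1 lowest, and Col6a4, Col7a1, Col17a1 and Col11a1 spread over more than 10-fold within both groups.

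Those untested were Col2a1 and Col24a1 of the fibrillar class, Col9a1, Col9a2, Col19a1 and Col22a1, which associate with fibrils, and Col10a1, Col25a1 and Col26a1. Type II and X collagens, with type IX, are known from cartilage. Their highest count in any library was 31, for Col24a1. Of the other 8, none passed 16 counts, and every one of the 9 had at least 1 count in some library.

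In the edgeR test no collagen gene was called as changed with epinephrine over the 12 libraries. Of the 35 tested, 0 were higher and 0 lower at an adjusted p under 0.05 (edgeR quasi-likelihood test, Benjamini-Hochberg over 16175 genes), while 2.65% of all tested genes were higher and 3.58% lower. At an unadjusted p under 0.05 there was 1 of 35 (2.86%), against 17.2% of all genes, and in 0 of 35 were the groups apart, against 2.04% of all genes apart upward and 2.74% downward. DESeq2 called 0 of 35 (1 at unadjusted p), against 4.7% of all genes higher and 5.48% lower. On the deposited variance-stabilized values limma called 0 (1 at unadjusted p), against 2.84% higher and 2.98% lower. Weighted limma-voom called 1, Col4a6 (3 at unadjusted p), against 6.34% higher and 9.29% lower. Over the 35, 22 estimates were above 0 and 13 below, with a median of 0.03 on the log2 scale, against -0.00059 over all tested genes. In 26 of the 35 the 95% interval of the change lay within 2-fold in either direction, and in 16 within 1.5-fold. These shares, 74.3% and 45.7%, were close to those of all tested genes, 75.1% and 50.9%.

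**Figure D2:**
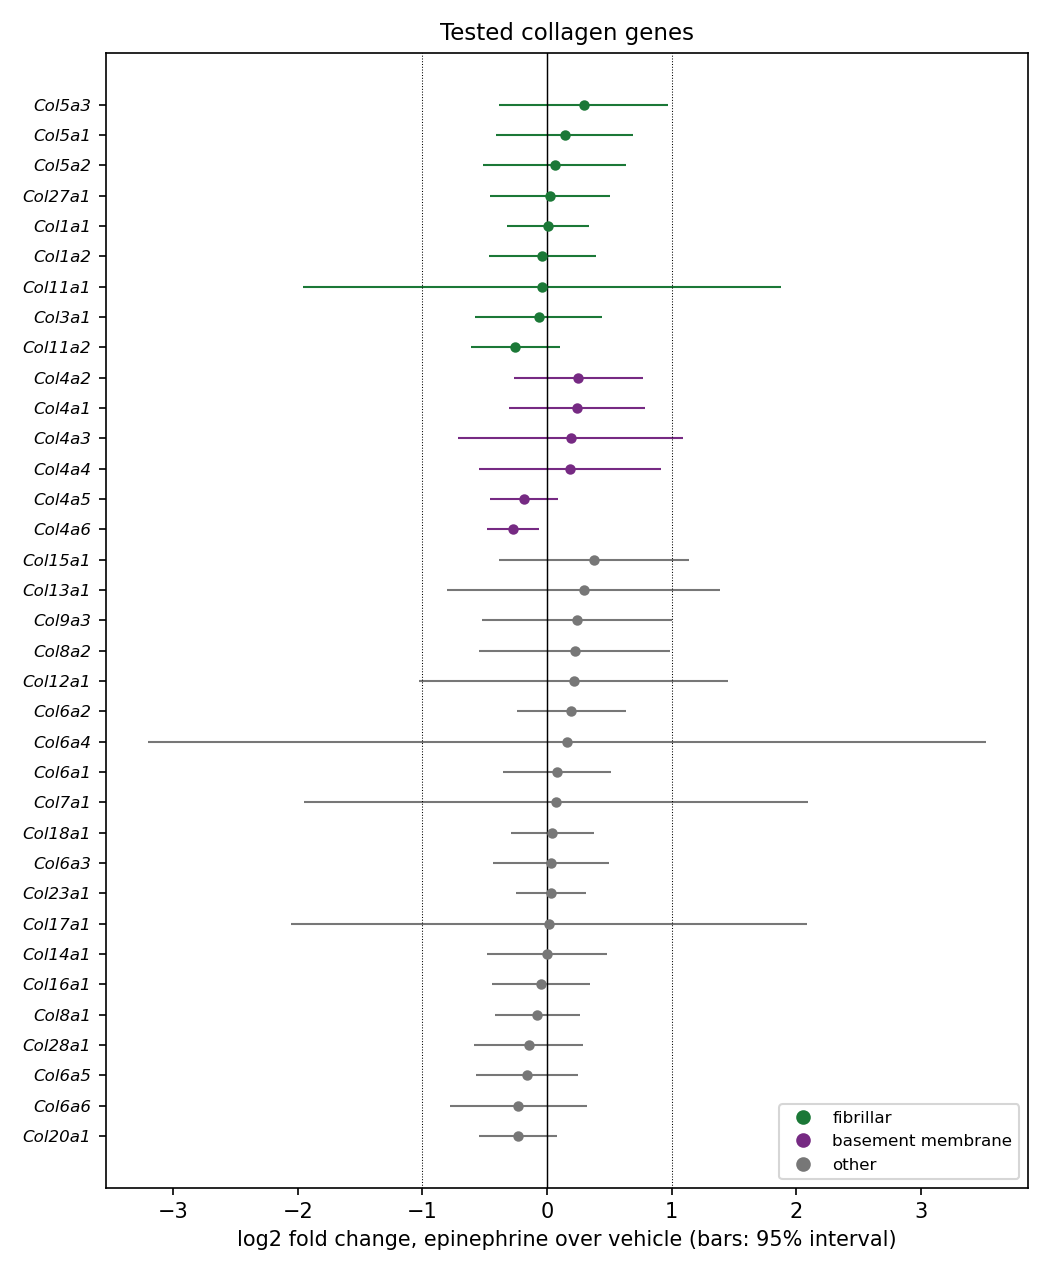
Log2 fold change of each tested collagen gene, epinephrine over vehicle, by class (dot), with its 95% interval (bar) and dotted lines at 2-fold. The bar of Col4a6 alone stays on one side of 0, and the bars of Col6a4, Col7a1, Col17a1 and Col11a1 are the widest.

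Among fibrillar genes, the type I chains did not differ between groups beyond their spread. Col1a1, which encodes the chain present in duplicate in type I collagen, was at 371 CPM at the lowest, 566 at the median and 631 at the highest with epinephrine, against 388, 554 and 621 CPM with vehicle. The groups covered almost the same range. The estimated log2 change was 0.01 (SE 0.15), with a 95% interval from 0.800-fold to 1.27-fold (edgeR adjusted p = 0.992). Col1a2, the partner chain, ran from 496 to 1010 CPM (median 891) with epinephrine and from 517 to 919 CPM (median 878) with vehicle (log2 change -0.04 with SE 0.20, edgeR adjusted p = 0.971). Per length, the ratio of Col1a1 to Col1a2 reads was 0.741 ± 0.0683 with epinephrine and 0.712 ± 0.0657 with vehicle (SD, n = 6 each), although the protein holds more of the Col1a1 chain.

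Col3a1 covered nearly equal ranges too, at 927 CPM at the lowest, 1866 at the median and 2114 at the highest with epinephrine, against 943, 1924 and 2121 CPM with vehicle (log2 change -0.07 with SE 0.23, edgeR adjusted p = 0.948). The lowest libraries were epinephrine 1 and vehicle 2. The type V genes, whose products start fibrils and set their width, had log2 fold changes of 0.14 for Col5a1, 0.06 for Col5a2 and 0.29 for Col5a3. Col5a3 had the most uneven values of these, from 187 to 665 CPM (median 465) with epinephrine and from 160 to 486 CPM (median 390) with vehicle (SE 0.31, edgeR adjusted p = 0.760). Its groups overlapped over most of their range. The tested genes at low level were Col11a1, at 1.46 ± 1.36 CPM with epinephrine and 1.51 ± 2.00 CPM with vehicle (SD, n = 6 each; edgeR adjusted p = 0.995), Col27a1, at 11.9 ± 2.92 CPM with epinephrine and 11.7 ± 3.69 CPM with vehicle, and Col11a2, at 1.49 ± 0.299 CPM with epinephrine and 1.77 ± 0.213 CPM with vehicle (SD, n = 6 each; edgeR adjusted p = 0.986 and 0.514).

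**Figure D3:**
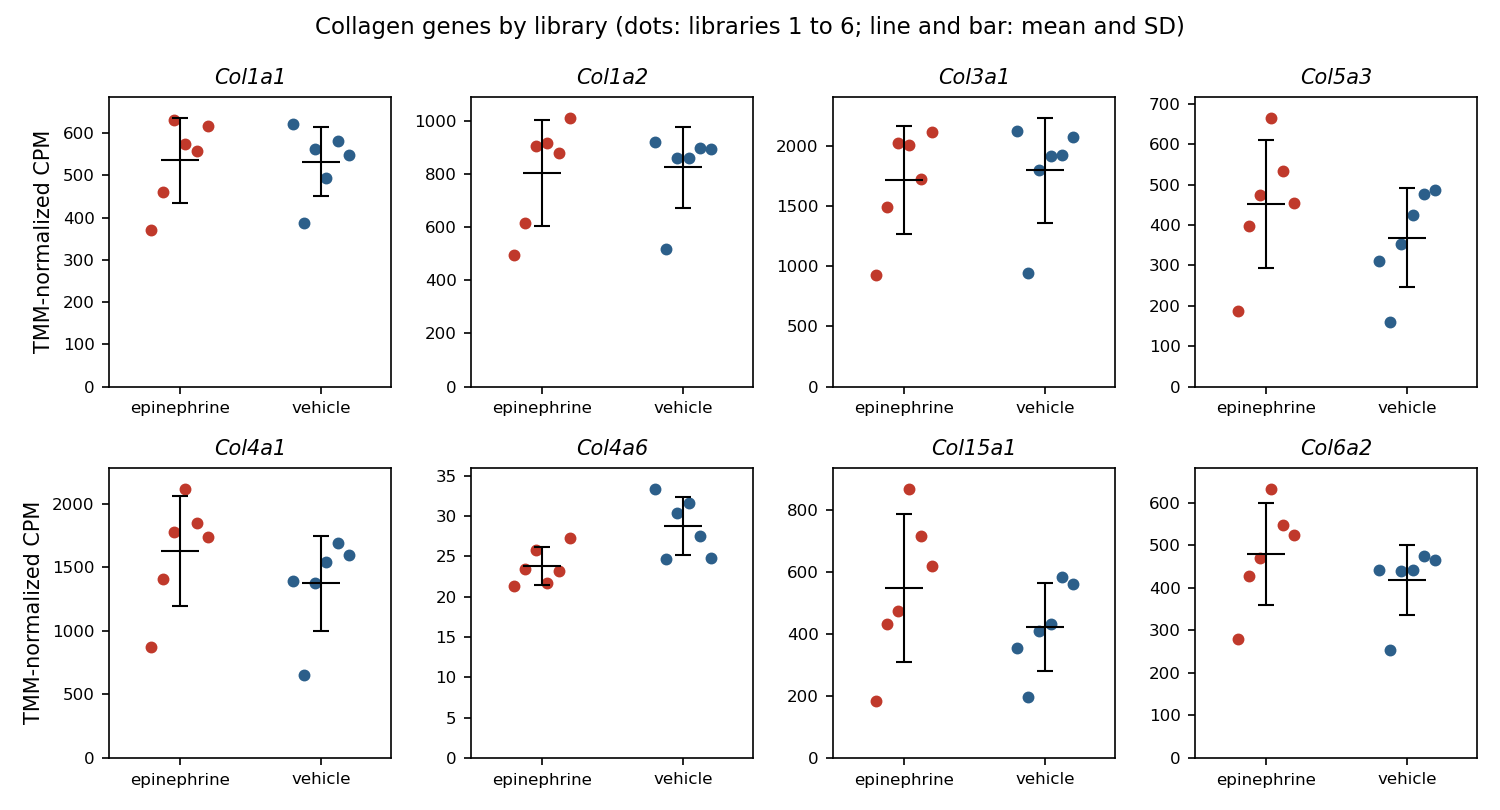
TMM-normalized CPM of 8 collagen genes in every library, epinephrine left and vehicle right (dots in the order of numbers 1 to 6, with mean and SD). Groups overlap in all 8, and the lowest dots of Col1a2, Col3a1 and Col4a1 are epinephrine 1 and vehicle 2.

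None of the 6 basement membrane genes was called in edgeR, with 4 estimates above 0 and 2 below. Col4a1 and Col4a2, whose chains make up the common type IV network, had log2 fold changes of 0.24 (SE 0.25) and 0.25 (SE 0.24). Col4a1 was at 870 CPM at the lowest, 1758 at the median and 2114 at the highest with epinephrine, against 653, 1466 and 1692 CPM with vehicle. The highest 4 epinephrine libraries lay above every vehicle library, but epinephrine 1 and 2 did not, and the call failed (edgeR adjusted p = 0.753). The ratio of Col4a1 to Col4a2 per length was 1.54 ± 0.0483 with epinephrine and 1.55 ± 0.0631 with vehicle (SD, n = 6 each). Their reads thus kept nearly the same proportion in all 12 libraries, from 1.47 to 1.62. Reads in the 85 shared bases cannot be given to either gene without strand, and the strand setting is not given in the sources used here.

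Col4a6 had the smallest p of all collagens. It encodes a chain that pairs with that of Col4a5 around smooth muscle and under some epithelia. It was at 21.3 CPM at the lowest, 23.3 at the median and 27.3 at the highest with epinephrine, against 24.6, 29.0 and 33.3 CPM with vehicle. Only epinephrine 3 and 6 reached into the vehicle range. The estimated log2 change was -0.27 (SE 0.09), with a 95% interval from 0.717-fold to 0.956-fold (edgeR unadjusted p = 0.0142, adjusted p = 0.136). It passed in weighted limma-voom (adjusted p = 0.0285; 9.29% of all genes lower) and with scaling by library size (edgeR adjusted p = 0.0367; 2.23% of all genes higher and 8.95% lower), where the median of all genes was at -0.11 and Col4a6 at -0.38. Its neighbour Col4a5, mutated in human Alport syndrome, was at 42.0 to 61.4 CPM (median 45.4) with epinephrine and at 45.1 to 64.7 CPM (median 56.5) with vehicle (log2 change -0.19 with SE 0.13, edgeR adjusted p = 0.549).

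Col4a3 and Col4a4, which encode chains known from the glomerulus of the kidney, were low in most libraries. Col4a3 ran from 6.19 to 17.5 CPM (median 11.5) with epinephrine and from 4.89 to 26.0 CPM (median 7.95) with vehicle (log2 change 0.19 with SE 0.41, edgeR adjusted p = 0.915). Col4a4 had a log2 fold change of 0.18 (SE 0.33, edgeR adjusted p = 0.893). Both were highest in vehicle 2.

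Of the type VI genes, Col6a1, Col6a2 and Col6a3 encode the chains of the common filament. Col6a2 ran from 279 to 632 CPM (median 497) with epinephrine and from 254 to 474 CPM (median 442) with vehicle (log2 change 0.19 with SE 0.20, edgeR adjusted p = 0.752). Col6a1 and Col6a3 had log2 fold changes of 0.08 and 0.03 (edgeR adjusted p = 0.927 and 0.977). Col6a5, a chain that can stand in for that of Col6a3, was more abundant than Col6a3 per length, at 32.4 ± 6.34 CPM per kb with epinephrine and 36.2 ± 8.82 with vehicle (SD, n = 6 each), against 21.8 and 21.3 for Col6a3. Its change and that of the related Col6a6 were -0.16 (SE 0.19) and -0.23 (SE 0.25) on the log2 scale (edgeR adjusted p = 0.794 and 0.774).

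The multiplexin genes encode collagens XV and XVIII, which lie at basement membranes and release endostatin-type fragments. Col15a1 had the largest log2 fold change of the 35, 0.38 (SE 0.35), at 183 CPM at the lowest, 546 at the median and 866 at the highest with epinephrine, against 196, 421 and 583 CPM with vehicle (edgeR adjusted p = 0.707). The top 3 values were epinephrine 4, 5 and 6, and the lowest 2 were epinephrine 1 and vehicle 2. Col18a1 was at 256 ± 57.0 CPM with epinephrine and 249 ± 34.3 CPM with vehicle (SD, n = 6 each; log2 change 0.04 with SE 0.15, edgeR adjusted p = 0.951).

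The remaining types had no call either. Col14a1, the highest per length of the fibril-associated group, was at 76.3 ± 23.7 CPM with epinephrine and 76.4 ± 17.0 CPM with vehicle, and Col20a1 of the same group at 3.81 ± 0.678 CPM with epinephrine and 4.48 ± 0.529 CPM with vehicle (SD, n = 6 each; edgeR adjusted p = 0.999 and 0.491). Col9a3, a type IX chain gene near the detection limit, had a log2 fold change of 0.24 (SE 0.35, edgeR adjusted p = 0.853). The network-forming Col8a1 and Col8a2, known from vessels and the cornea, had log2 fold changes of -0.08 (SE 0.16) and 0.22 (SE 0.35). Of the transmembrane chains, Col23a1 was at 12.9 ± 1.09 CPM with epinephrine and 12.6 ± 2.80 CPM with vehicle, and Col13a1 at 1.30 ± 0.574 CPM with epinephrine and 1.07 ± 0.916 CPM with vehicle (SD, n = 6 each; edgeR adjusted p = 0.957 and 0.885). Col28a1 had a log2 fold change of -0.15 (SE 0.20, edgeR adjusted p = 0.838).

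Many collagen genes followed the epididymal content of the libraries. The epididymal score, which averages log2 CPM over the 17 markers, was entered beside treatment in an edgeR fit over all 16175 genes, a description of how libraries vary and not of treatment. At an adjusted p under 0.05, 9 of the 35 collagens increased with the score (25.7%), against 22.3% of all genes, and 14 decreased (40.0%), against 23.2% of all genes. The 9 were Col6a4, Col17a1, Col7a1, Col11a1, Col12a1, Col13a1, Col4a3, Col27a1 and Col16a1. The 14 held all 3 type V genes, Col3a1, Col1a2, Col4a1, Col4a2, Col15a1, Col6a1, Col6a2, Col6a3, Col6a6, Col8a1 and Col28a1.

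The steepest increase was that of Col6a4, a type VI chain gene that is not intact in humans. It was at 148, 174, 6.77, 2.72, 1.48 and 1.57 CPM in epinephrine 1 to 6, and at 2.12, 231, 53.8, 8.90, 1.82 and 1.62 CPM in vehicle 1 to 6. It thus exceeded 100 CPM in epinephrine 1, epinephrine 2 and vehicle 2 alone, the libraries with the most epididymal RNA. Its coefficient was 0.80 log2 units per unit of score (SE 0.09, edgeR adjusted p = 0.000148), and it passed within the epinephrine libraries alone (0.90, edgeR adjusted p = 0.00729; 14.5% of all genes positive) and within the vehicle libraries alone (0.71, edgeR adjusted p = 0.0318; 4.7% of all genes positive). Its neighbours on chromosome 9 did not follow it. Col6a6 had a coefficient of -0.09 (edgeR adjusted p = 0.0280) and Col6a5 one of -0.04 (edgeR adjusted p = 0.224).

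Col17a1 and Col7a1 encode collagens of the epithelial attachment to basement membrane, in hemidesmosomes and anchoring fibrils. Col17a1 reached 12.5 CPM in epinephrine 1 and 14.9 CPM in vehicle 2, with medians of 1.35 CPM with epinephrine and 2.08 CPM with vehicle. Col7a1 reached 26.6 CPM in epinephrine 1 and 31.5 CPM in vehicle 2, with medians of 4.21 CPM with epinephrine and 4.38 CPM with vehicle. Their coefficients were 0.45 and 0.44 (edgeR adjusted p = 8.11e-05 and 8.54e-05). Those of Col11a1 and Col12a1 were 0.43 and 0.25 (edgeR adjusted p = 9.91e-05 and 0.000665). The treatment intervals of Col6a4, Col17a1, Col7a1 and Col11a1 were wide, from 0.108-fold to 11.5-fold for Col6a4.

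**Figure D4:**
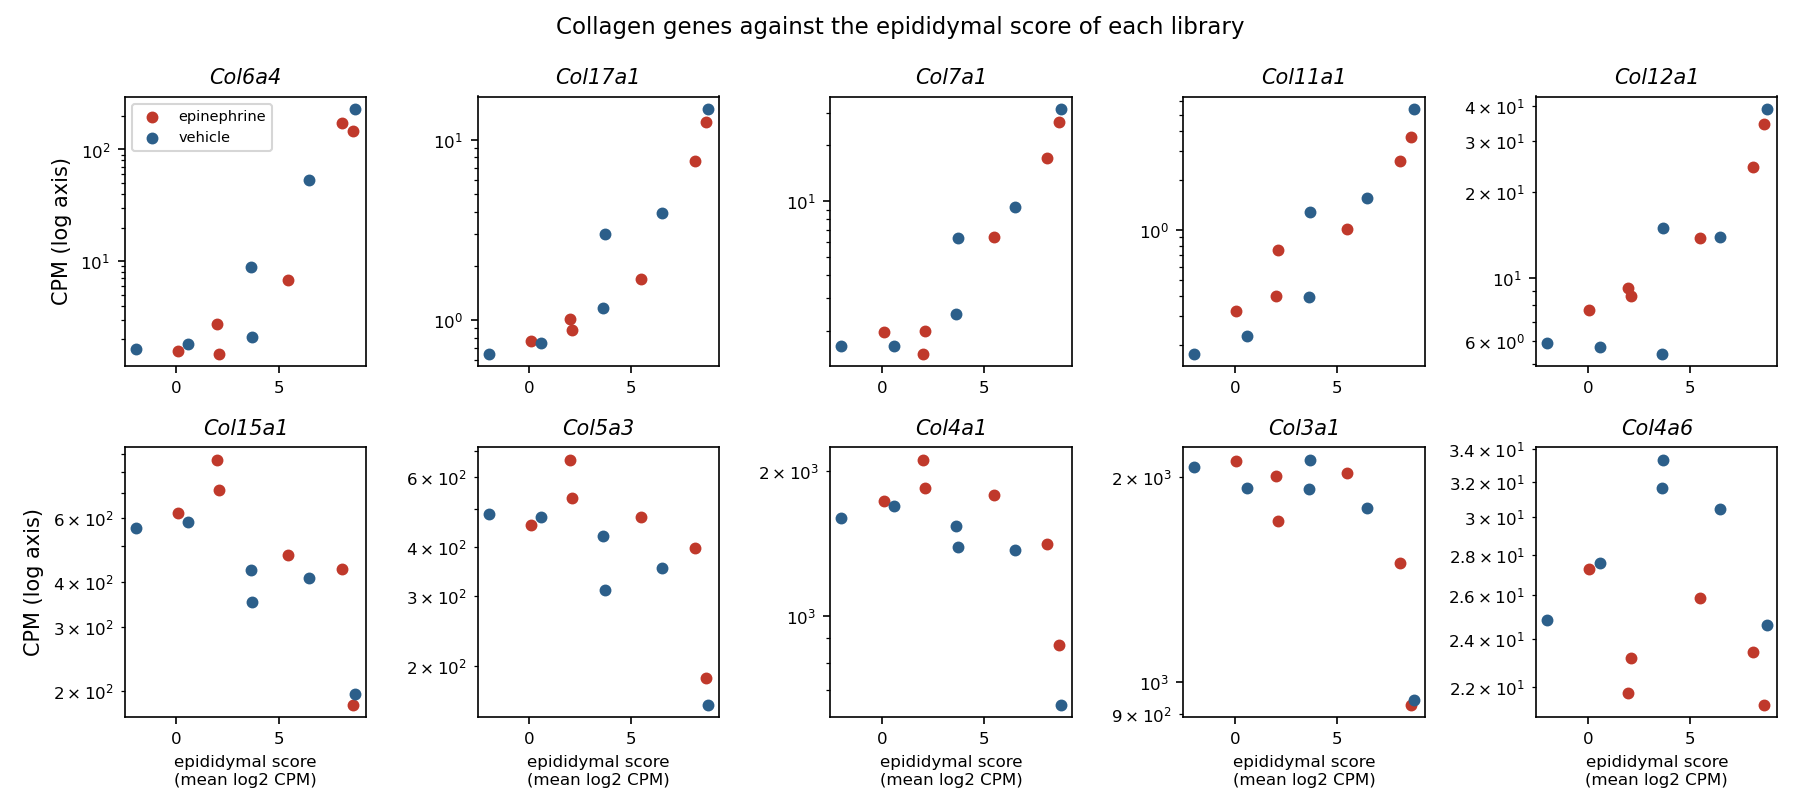
CPM (log axis) of 10 collagen genes against the epididymal score of each library (log2 CPM averaged over 17 markers), epinephrine and vehicle libraries in separate colours. Col6a4, Col17a1, Col7a1, Col11a1 and Col12a1 are highest in the 3 libraries with scores above 8, and Col15a1, Col5a3, Col4a1 and Col3a1 are lowest in epinephrine 1 and vehicle 2.

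The steepest decrease was that of Col15a1, at -0.15 per unit of score (SE 0.03, edgeR adjusted p = 0.00713), followed by Col5a3 at -0.12 (SE 0.03, edgeR adjusted p = 0.0140). All 10 adipocyte, all 8 endothelial and all 6 macrophage markers also had negative coefficients past the threshold, against 23.2% of all genes. Of 10 fibroblast and progenitor markers 5 were negative and 1 positive, and of 7 smooth muscle and pericyte markers 1 was negative and 3 positive. Of 6 mesothelial markers 0 were negative and 2 positive, against 22.3% of all genes positive. With treatment, 1 gene each of the fibroblast (F3), endothelial (Cldn5) and smooth muscle (Tagln) lists was higher and none lower, against 2.65% and 3.58% of all genes. The summed fibroblast list ran from 649 to 1027 CPM with epinephrine and from 786 to 1040 CPM with vehicle, and the smooth muscle and pericyte list from 675 to 814 CPM with epinephrine and from 443 to 719 CPM with vehicle. Acta2, the smooth muscle actin gene of that list, had a log2 fold change of 0.51 (edgeR unadjusted p = 0.0195, adjusted p = 0.166). The part of these cells in the collagen values was not tested. The score and the replicate numbers move together, since numbers 4 to 6 had scores of 3.63 or less. With the contrast of numbers 1 to 3 against 4 to 6 also in the fit, 0 of the 35 passed, and 0.81% of all genes were positive and 0.0371% negative.

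Numbers 1 to 3 and 4 to 6 were therefore compared apart as well. Within numbers 1 to 3, 0 collagens were called, and 0% of all genes. Within numbers 4 to 6, which hold little epididymal RNA, Col6a5 was lower (log2 fold change -0.44, edgeR adjusted p = 0.0144) and Col12a1, a fibril-associated collagen, was higher (0.59, edgeR adjusted p = 0.0325). That is 1 gene in each direction of 35, against 4.4% of all genes higher and 3.99% lower. Col6a5 was at 262, 284 and 295 CPM in epinephrine 4 to 6, against 377, 394 and 369 CPM in vehicle 4 to 6. Among these libraries the groups were apart upward in 9 of 35 collagens (25.7%), against 15% of all genes, and downward in 2 (5.71%), against 16.9%. Among numbers 1 to 3 they were apart upward in 0, against 6.36% of all genes, and downward in 2, Col14a1 and Col16a1, against 9.39%. The 9 include Col4a1, Col15a1, Col18a1, Col6a1, Col6a2 and Col5a1. The difference in effect between the sets of numbers was not called for any collagen or for any other gene (interaction term, edgeR; 0 of 16175, 0%), with adjusted p = 0.927 for Col6a5 and 0.989 for Col12a1.

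Among the lists of collagen-related genes, the smallest p-values were in the machinery that folds and modifies collagen. Serpinh1 encodes HSP47, the collagen-specific chaperone of the endoplasmic reticulum, which belongs to the heat shock genes. It was at 384 CPM at the lowest, 749 at the median and 929 at the highest with epinephrine, against 162, 376 and 522 CPM with vehicle. All epinephrine libraries but epinephrine 1 lay above every vehicle library. The estimated log2 change was 0.89 (SE 0.28), and it missed the threshold (edgeR adjusted p = 0.0923, and 0.0530 under the replicate block). P4ha1, which encodes a catalytic subunit of prolyl 4-hydroxylase, was at 58.8 CPM at the lowest, 97.2 at the median and 101 at the highest with epinephrine, against 33.3, 62.4 and 68.8 CPM with vehicle. Again only epinephrine 1 reached into the vehicle range. The estimated log2 change was 0.61 (SE 0.18, edgeR adjusted p = 0.0858, and 0.0639 under the replicate block).

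Both genes passed in other tests of the same 12 libraries. In DESeq2 the adjusted p was 0.0135 for Serpinh1 and 0.0144 for P4ha1, and in weighted limma-voom 0.00196 and 0.00126, while limma on the variance-stabilized values gave 0.0904 and 0.0792. With numbers 1 to 3 against 4 to 6 as a covariate it was 0.0228 and 0.0360 (edgeR). With the score as a covariate the log2 fold changes were 1.01 for Serpinh1 and 0.67 for P4ha1 (edgeR adjusted p = 0.00295 and 0.00508), and without epinephrine 1, epinephrine 2 and vehicle 2 they were 0.96 and 0.67 (edgeR adjusted p = 0.00284 and 0.000129). Leaving out epinephrine 1 alone sufficed for both (edgeR adjusted p = 0.0361 and 0.0292), and leaving out vehicle 2 for P4ha1 (edgeR adjusted p = 0.0453). Within numbers 4 to 6 both passed, at log2 fold changes of 0.86 and 0.63 (edgeR adjusted p = 0.0123 and 0.00255). Within numbers 1 to 3, where 0% of all genes were called, the estimates were 0.95 and 0.60 (edgeR adjusted p = 0.630 and 0.707). Over the 21 genes of collagen folding and modification, 20 were tested. Of these, 0 passed in edgeR (2 at unadjusted p), 2 in DESeq2, 2 in weighted limma-voom and 0 in limma on the variance-stabilized values. Over all genes, 17.2% had an unadjusted p under 0.05 in edgeR. DESeq2 called 4.7% of all genes higher and 5.48% lower, and weighted limma-voom 6.34% and 9.29%. The median change of the 20 was 0.09 on the log2 scale. The same score fit called 0 of the 35 collagens, against 4.42% of all genes higher and 6.16% lower. Without those 3 libraries 0 collagens were called too, against 4.87% and 6.37%, and the smallest adjusted p was that of Col4a1 (log2 fold change 0.30, edgeR adjusted p = 0.0717).

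**Figure D5:**
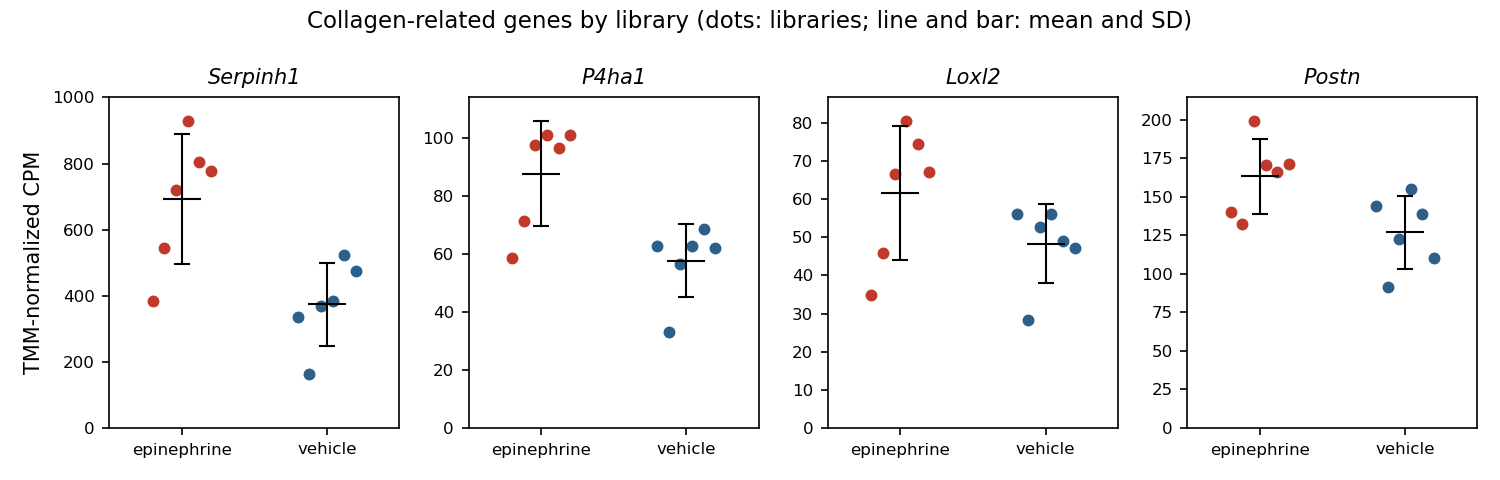
TMM-normalized CPM of Serpinh1, P4ha1, Loxl2 and Postn in every library, epinephrine left and vehicle right (dots in the order of numbers 1 to 6, with mean and SD). For Serpinh1 and P4ha1, all epinephrine dots but the lowest, epinephrine 1, lie above the vehicle dots.

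The other fixed lists held no call in edgeR, DESeq2 or limma on the variance-stabilized values over all 12 libraries. Weighted limma-voom called 1 fibril-associated matrix gene and 1 basement membrane partner, against 6.34% of all genes higher and 9.29% lower. Of 14 tested genes that cleave procollagen or cross-link it, 0 passed in edgeR (1 at unadjusted p, against 17.2% of all genes). Furin, a protease of the secretory pathway, had a log2 fold change of 0.16 (SE 0.07, edgeR adjusted p = 0.266). Loxl2, a lysyl oxidase-type cross-linker, had 0.35 (SE 0.22, edgeR adjusted p = 0.489). It passed within numbers 4 to 6 (0.54, edgeR adjusted p = 0.0186), where 4.4% of all genes were higher and 3.99% lower. Loxl2 also passed without epinephrine 1, epinephrine 2 and vehicle 2 (0.47, edgeR adjusted p = 0.00402), where 4.87% of all genes were higher and 6.37% lower. Of 9 tested collagen receptors 0 passed in edgeR (0 at unadjusted p). Itgb1, the beta chain of the collagen-binding integrins, was at 504 ± 54.0 CPM with epinephrine and 446 ± 34.4 CPM with vehicle (SD, n = 6 each; log2 fold change 0.17, edgeR adjusted p = 0.389). It passed within numbers 4 to 6 (0.25, edgeR adjusted p = 0.0495) and without epinephrine 1, epinephrine 2 and vehicle 2 (0.22, edgeR adjusted p = 0.0336). Itga10 had a log2 fold change of -0.30 (edgeR adjusted p = 0.412). Of 15 fibril-associated matrix genes 0 passed in edgeR (1 at unadjusted p). Prelp and Aspn of this list passed within numbers 4 to 6 (log2 fold change 0.57 and 0.45, edgeR adjusted p = 0.0278 and 0.0495). Postn, a matricellular protein that binds collagen, was at 0.36 (SE 0.14, edgeR adjusted p = 0.186), and passed in weighted limma-voom (0.35, adjusted p = 0.0451) and without epinephrine 1, epinephrine 2 and vehicle 2 (0.40, edgeR adjusted p = 0.0357). Fbln1 was at -0.33 (edgeR adjusted p = 0.565). Of 15 basement membrane partners 0 passed in edgeR (0 at unadjusted p). Of these, Lamc3, a laminin chain gene, was at -0.27 on the log2 scale (edgeR adjusted p = 0.473).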

How the data were processed

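RNA from eWAT of 12 mice was sequenced after SMARTER mRNA-Seq library preparation, according to the protocols in the labels. Per the submitters' processing notes, HISAT2, featureCounts, cutadapt, FastQC and DESeq2 were used on build mm10 (no versions listed). Annotation and strand setting: not given in the sources used here. The authors deposited raw counts of reads per gene for 27179 genes, with gene lengths, and variance-stabilized values on a log2-like scale for 20185 genes.

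Low genes were removed by filterByExpr (min.count 10, total of at least 15); TMM factors then scaled the counts for edgeR 4.0.16 (robust quasi-likelihood F test) in R 4.3.3, with p-values Benjamini-Hochberg adjusted over 16175 genes. The SE is the unshrunk log2 fold change divided by the square root of F. DESeq2 1.42.0 and limma 3.58.1 were alternatives. The test was tried on simulated data. Gene models with no symbol numbered 1312 and stayed in library sizes. No 2 of 66 library pairs held identical counts.

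Members and lists were chosen with earlier results of these data known. Named genes were, in each class, the highest per length and the 2 with the smallest p, plus Col1a1, Col1a2 and Col3a1, and the 2 with the smallest p of each related list; others were chosen after their values were seen. A single gene that this rule picked is not reported here. Titles give the replicate numbers. Deviations from the group means correlated across genes at 0.264 to 0.797 between libraries with equal numbers, all above 0.1. These values were not set against pairs with unequal numbers, and numbers 1 to 3 and 4 to 6 also differ in both groups. The correlations thus do not show that equal numbers belong together.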

Additional observations from a re-analysis of the deposited data

Results flagged for a closer look

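For 30 named genes, each group of 6 libraries was checked for a library whose gap to its nearest neighbour exceeds Dixon's 95% critical value as a share of the group's range. This marked 11 of 60 groups. Chance marks about 1 in 20 where groups are independent and values follow a normal distribution. The genes here share the same libraries, so the count cannot be set against that rate. Vehicle 2, where epididymal reads took the largest share, accounted for all 11.

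Vehicle 2 was lowest of its group in Col1a2 (517 CPM, nearest 859), Col3a1 (943 CPM, nearest 1802), Col4a1 (653 CPM, nearest 1374), Col6a2 (254 CPM, nearest 439) and Col6a6 (29.7 CPM, nearest 66.8). It was also lowest in the related genes P4ha1 (33.3 CPM, nearest 56.7), Loxl2 (28.4 CPM, nearest 47.2) and Itgb1 (379 CPM, nearest 444). It was highest of its group in Col7a1 (31.5 CPM, nearest 9.33), Col23a1 (18.2 CPM, nearest 12.7) and Col13a1 (2.82 CPM, nearest 1.20).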

How the results depend on the processing

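Over 27 alternatives, the count of higher collagens stayed at 0 in 26 and that of lower collagens in 24. The exceptions were 1 higher and 1 lower within numbers 4 to 6, 1 lower with library size scaling and 1 lower with limma-voom. Leaving out any 1 library gave 0 to 0 in each direction. Over all genes, the main counts of 428 higher and 579 lower became 759 and 884 with DESeq2, 1026 and 1503 with limma-voom, 228 and 185 at a threshold of 0.01, 715 and 997 with the epididymal score, 786 and 1028 without epinephrine 1, epinephrine 2 and vehicle 2 (Gpx5 over 0.5%), and 0 and 0 within numbers 1 to 3. There were 696 higher genes within numbers 4 to 6 and 1448 lower genes with library size scaling. With the replicate block 365 were lower, and the block changed no call of a collagen or of a named related gene. Leaving out 1 library gave 317 to 549 higher and 276 (without vehicle 4) to 797 (without epinephrine 1) lower. The median log2 fold change of type IV genes was -0.094 within numbers 1 to 3 against 0.19 in all libraries, and that of the network genes was 0.48 within numbers 4 to 6 against 0.07; the cause was not tested. P4ha1 passed in 8 of 27 alternatives and Serpinh1 in 7, with no change of direction.

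The fit with numbers 1 to 3 against 4 to 6 as a covariate, the interaction term and the score fits with that contrast or within a group were added after seeing the data. Low counts limit Col11a1, Col9a3, Col13a1, Col17a1 and Col11a2, which had a minimum of 6, 8, 12, 19 and 30 reads.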
